A study of Mus musculus with 12 samples.

Results

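The effect of methotrexate on the proximal jejunum of wild-type mice was measured by setting 3 treated mice against 3 untreated mice, 1 array each, out of 12 arrays in the series. The members are all genes that a probe set reads alone: 21218 of the 35556 probe sets on the array carried 1 gene name, and they gave 18820 genes. All 6 mice were C57BL6/J, the strain labelled wild type, and each mouse is an animal of its own, per the labels. The treated mice received methotrexate by intraperitoneal injection at 40 mg per kg body weight per day for 4 days, and their jejunum was sampled on day 7. Neither an injection nor a day of sampling is recorded for the untreated mice, so effects of the drug, of the injections and of the day cannot be told apart. The other 6 arrays came from TLR2 knockout mice (B6.129-Tlr2tm1Kir/J), 3 untreated and 3 treated in the same way. They entered the test only to share its estimate of the spread between mice and to give the difference in effect between genotypes.

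Methotrexate is an antifolate: it blocks dihydrofolate reductase, and dividing cells then run short of the folate needed to make thymidylate and purines. The small intestine is exposed to this because crypt cells divide all the time and replace the absorptive cells of the villus, and Paneth cells at the crypt base feed and guard the stem cells. Intraepithelial lymphocytes, mostly CD8 T cells with cytotoxic granules, sit between the absorptive cells, and the absorptive cells burn fat and glutamine in their mitochondria to drive uptake.

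Genes of absorptive cells were high in all 6 mice. Lactase (Lct) lay between 9.89 and 11.97 on the log2 scale in the 6 mice and sucrase-isomaltase (Sis) between 11.58 and 11.998. Pearson correlations over the 18820 genes were 0.976 to 0.996 between untreated mice, 0.984 to 0.992 between treated mice and 0.972 to 0.989 across the groups, so the arrays did not split by treatment. Some samples also held other tissue. The mean of 12 genes of pancreatic acinar cells was 11.1 to 11.6 in untreated mice 2 and 3 and treated mouse 2, and 3.86 to 4.75 in the other 3 mice. The mean of 11 fat cell genes was 6.88 in untreated mouse 1 and 4.73 to 5.44 in the other 5 mice, and the gastric and duodenal gland mucin Muc6 was 8.53 in untreated mouse 3 against 2.92 to 3.47 elsewhere. For some lists, values are therefore also given within the mice with and within those without pancreatic RNA, where each split holds only 3 mice.

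The response was small. Over the 18820 genes the median size of the log2 change, treated minus untreated, was 0.15, the same as its median standard error of 0.15. A gene's SD between the 3 mice of a group had a median of 0.15 in untreated and 0.14 in treated mice. A log2 change of at least 1 in size was seen for 210 genes, 52 higher and 158 lower after treatment. With limma, a linear model whose variances are moderated over all genes, 14 genes (0.0744%) had an adjusted p under 0.05, 8 higher and 6 lower, with adjusted p-values between 0.0437 and 0.0499. In all 14 the treated and untreated mice did not overlap. Unadjusted p-values were under 0.05 for 1265 genes on the higher side (6.72%) and 933 on the lower side (4.96%). All 3 treated mice lay above all 3 untreated mice for 2533 genes (13.5%) and below them for 1727 genes (9.18%), and these shares are the background for the gene lists that follow. Quantile normalisation turned the split of calls to 6 higher and 9 lower, and centring each array on its median gave 0 calls with limma, with 2078 genes at an unadjusted p under 0.05. The number of calls also depended on single mice. With limma it was 0 without any one of untreated or treated wild-type mice 2 and 3 (1389 to 2486 genes at an unadjusted p under 0.05), 1 without untreated wild-type mouse 1 and 4 without treated wild-type mouse 1. Without single knockout arrays, which share the variance estimate, it ran from 0 to 97, the highest without treated knockout mouse 1.

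**Figure D1:**
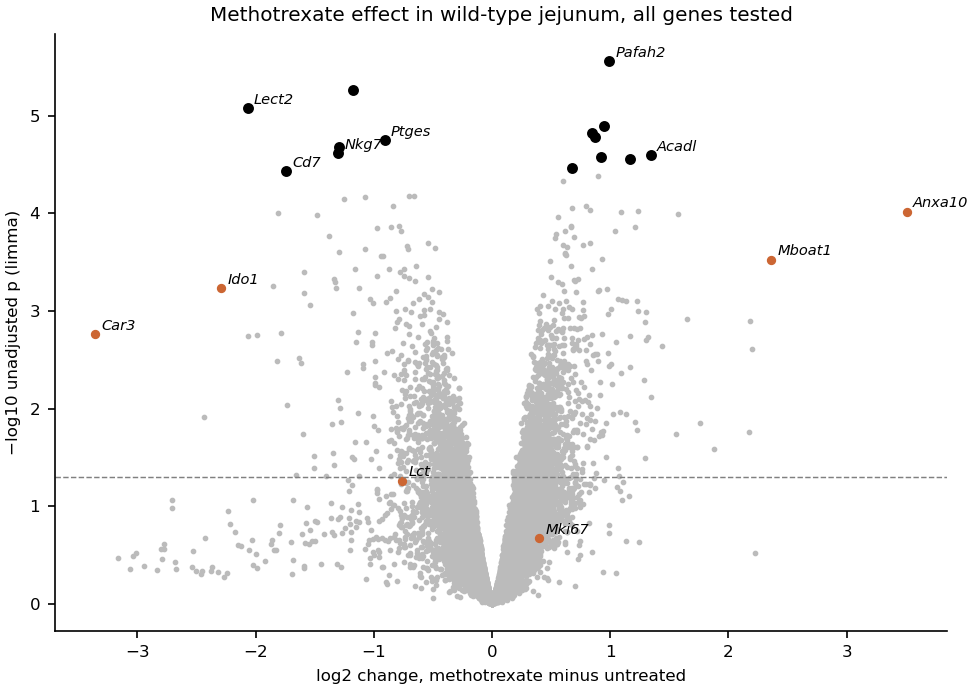
Log2 change after methotrexate in wild-type jejunum (x axis, treated minus untreated, 3 mice each) against the −log10 of limma's unadjusted p (y axis), 1 point per gene. Black points are the 14 genes with an adjusted p under 0.05, orange points are other named genes, and the dashed line marks an unadjusted p of 0.05. The largest changes in size, Anxa10 at 3.51 and Car3 at -3.36, are not among the 14.

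The 6 genes that fell were mostly genes of cytotoxic lymphocytes. Lect2, a secreted chemotactic factor for leukocytes, was 6.36, 6.44 and 5.91 in the untreated mice and 4.31, 4.27 and 3.94 in the treated mice. It fell by 2.07 on the log2 scale (SE 0.27, limma adjusted p = 0.0437), to 0.238 of the untreated level. Cd7, a surface protein of T cells and NK cells, was 9.23, 8.91 and 8.91 without and 7.48, 6.96 and 7.37 with methotrexate. It fell by 1.74 (SE 0.26), and the gap between the groups was over 1 log2 unit. Cd8a, the alpha chain of the CD8 coreceptor, was 6.96, 6.65 and 6.48 without and 5.66, 5.05 and 5.48 with methotrexate, a fall to 0.406 of the untreated level. Nkg7, a membrane protein of cytotoxic granules, went from 7.41, 7.25 and 7.02 to 6.001, 5.56 and 6.22. For both Cd8a and Nkg7 the lowest mouse was treated mouse 2, and every treated mouse was below every untreated one. Klrd1, which encodes the NK receptor chain CD94, was 5.60, 5.22 and 5.23 in untreated and 4.20, 4.11 and 4.22 in treated mice, with a spread of under 0.2 among the treated. Ptges, the inducible synthase of prostaglandin E2, was 6.74, 6.63 and 6.68 in untreated and 5.81, 5.84 and 5.66 in treated mice and fell by 0.91 (SE 0.13). In this bulk tissue, fewer cells of a type and less RNA per cell cannot be told apart.

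The 8 genes that rose had no single theme among the lists, and included 1 gene of fat oxidation and 1 of the ATP synthase. Acadl, the long-chain acyl-CoA dehydrogenase that starts mitochondrial beta-oxidation, was 8.46, 8.17 and 8.45 in untreated and 9.58, 9.83 and 9.69 in treated mice. It rose by 1.34 (SE 0.19, limma adjusted p = 0.0437), a fold of 2.54. Atp5l, subunit g of the mitochondrial ATP synthase, was 7.68, 7.68 and 7.80 without and 8.49, 8.38 and 8.32 with methotrexate, a rise of 0.68. Pafah2, an intracellular enzyme that hydrolyses platelet-activating factor and oxidised phospholipids, had the smallest p of all genes. It was 7.62, 7.57 and 7.75 in untreated and 8.66, 8.68 and 8.58 in treated mice, a rise of 0.99 (SE 0.11). Gstp3, a glutathione transferase, was 5.50, 5.38 and 5.19 without and 6.25, 6.20 and 6.48 with methotrexate, a rise of 0.95. Clca3a1, of the family of calcium-activated chloride channel regulators, was 4.97, 5.14 and 5.05 without and 5.96, 6.03 and 5.94 with the drug. The treated values of Pafah2 and Clca3a1 spanned about 0.1, so these were rises of close to 1 in every mouse. Slc6a7, a proline transporter, was 4.00, 3.92 and 3.76 in untreated and 4.87, 4.77 and 4.64 in treated mice. Gramd2, a GRAM domain protein, was 5.14, 5.24 and 5.55 in untreated and 6.06, 6.21 and 6.21 in treated mice. Cfhr2, a relative of complement factor H, was 4.92, 4.78 and 4.97 without and 5.64, 6.33 and 6.19 with methotrexate. Its rise of 1.17 was 0.65, and no longer passed the test, when the mean of the gene's probe sets was used.

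**Figure D2:**
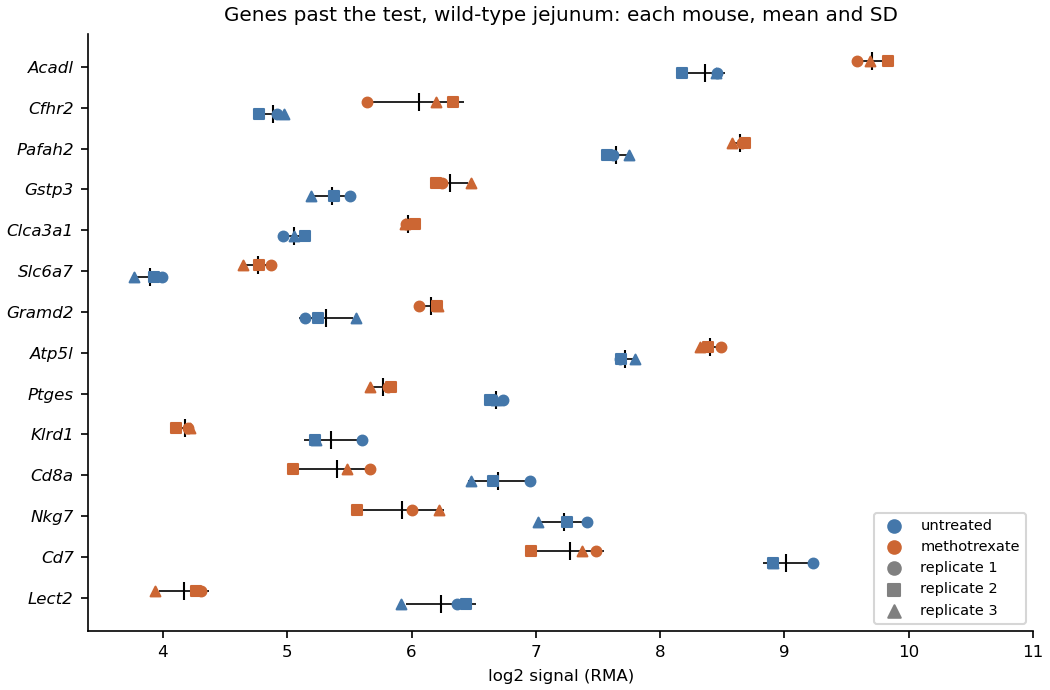
Log2 signal (x axis) of the 14 genes past the test, ordered by log2 change, in each of the 3 untreated (blue) and 3 methotrexate-treated (orange) wild-type mice, with the mean (tick) and SD (line) of each group. In every gene the groups are separate, from Lect2 (-2.07) to Acadl (1.34).

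Some larger changes did not pass the test, and in several of them the treated mice differed widely among themselves. Anxa10, an annexin, was 2.74, 2.94 and 4.02 in untreated and 5.40, 8.02 and 6.81 in treated mice, a log2 change of 3.51 (SE 0.59, limma adjusted p = 0.0647). The groups were well apart, but the treated mice alone spanned over 2 log2 units. Mboat1, a lysophospholipid acyltransferase, was 3.83, 5.14 and 5.70 without and 6.80, 8.14 and 6.82 with methotrexate (adjusted p = 0.0917). Nox1, a superoxide-producing NADPH oxidase of the epithelium, was 2.65, 2.70 and 2.97 without and 4.17, 6.52 and 4.23 with the drug. In Anxa10, Mboat1 and Nox1 treated mouse 2 was the highest, and without it the change of Nox1 was 1.42 in place of 2.20. Ddah1, which breaks down a natural inhibitor of nitric oxide synthase, had a log2 change of 2.18, and Phlda2, an imprinted gene, one of 1.57 (adjusted p = 0.0647). The other large positive changes without a call were those of Bcl2l15 (2.17), Npl (1.88), Akr1b8 (1.76) and the small nucleolar RNAs Snora61 (1.65) and Snora74a (1.44). The change of Akr1b8, an aldo-keto reductase, was 1.17 without treated mouse 2.

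On the lower side, a pair of transporters of DNA building blocks stood among the 10 largest changes. Slc28a2, which carries purine nucleosides, was 9.27, 9.82 and 9.96 in untreated and 7.41, 7.91 and 8.37 in treated mice (log2 change -1.79, SE 0.44, limma adjusted p = 0.172). Slc23a4, a nucleobase transporter, was 8.78, 9.39 and 9.49 without and 6.82, 7.58 and 7.81 with methotrexate (adjusted p = 0.0647). In both genes every treated mouse was below every untreated mouse, and neither passed the test. Ido1, the enzyme that starts tryptophan breakdown, was 5.76, 7.07 and 7.36 in untreated and 3.48, 4.37 and 5.46 in treated mice. Ccl5, a chemokine that draws in T cells, was 8.89, 9.05 and 8.99 without and 7.34, 6.61 and 7.43 with the drug, and its log2 change of -1.85 had an adjusted p of 0.124. Wfdc10 and Dio1, a thyroid hormone deiodinase, had log2 changes of -1.99 and -1.82, and that of Dio1 was -1.10 without treated mouse 2. The most negative values among genes without overlap and with an unadjusted p under 0.05 were those of a pair of fat cell genes, Car3 at -3.36 and the fat hormone Retn at -2.44, and fat cell genes were high in untreated mouse 1. Over all genes, values as negative as these were also found among genes of pancreatic acinar cells, whose 12 members had a median of -2.46 and a lowest value of -3.17, with overlapping groups. Car3 was 10.85, 7.86 and 7.32 in untreated and 5.01, 4.82 and 6.14 in treated mice, and without untreated mouse 1 the change of Retn was -1.19.

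Genes of cell division were somewhat higher after treatment, mainly in 1 mouse. None of 32 genes of DNA replication and none of 34 of mitosis passed the test, yet all 32 and all 34 had a positive log2 change, with medians of 0.36 and 0.47 where the median over all genes was close to 0. All 3 treated mice were above all 3 untreated mice in 16 replication genes (50%) and 17 mitosis genes (50%), against 13.5% of all genes. By the test the lists were near the background. On the higher side, 2 replication genes (6.25%) and 3 mitosis genes (8.82%) had an unadjusted p under 0.05, against 6.72% of all genes. Without treated mouse 2 the counts were 0 and 0, where the share of all genes was 4.34%. Treated mouse 2 was the highest treated mouse in 30 of the replication and 34 of the mitosis genes. The median distance of the mitosis genes from the untreated mean was 0.22, 1.08 and 0.22 in treated mice 1, 2 and 3. Without treated mouse 2 the list medians were 0.23 for replication and 0.19 for mitosis. Treated mouse 2 was also the treated mouse with pancreatic RNA. Within the mice with pancreatic RNA, where it was the only treated mouse, the medians were 0.66 and 1.04, and within the others 0.28 and 0.32.

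Single genes showed the same order. Cdca8, a subunit of the chromosomal passenger complex that guides chromosome segregation, was 5.24, 5.43 and 5.48 in untreated and 6.10, 6.78 and 6.05 in treated mice (log2 change 0.93, SE 0.34, limma adjusted p = 0.338). Birc5, survivin, a partner in that complex, was 5.57, 5.46 and 5.63 without and 6.30, 6.95 and 6.17 with methotrexate. The kinetochore motor Cenpe had 4.96, 5.36 and 5.42 against 5.80, 6.87 and 5.72. In these genes the groups did not overlap, and treated mice 1 and 3 lay close together well below treated mouse 2. The proliferation marker Mki67 was 8.14, 8.39 and 8.25 in untreated and 8.46, 9.05 and 8.48 in treated mice, with a 95% interval of the change from -0.26 to 1.07. Top2a, the topoisomerase of dividing cells, was 7.64 to 7.68 without and 7.74, 8.57 and 7.86 with the drug. Among replication genes, the flap endonuclease Fen1 had a log2 change of 0.66, the helicase cofactor Gins1 one of 0.67 and the primase subunit Prim2 one of 0.48, each highest in treated mouse 2. Without that mouse the changes were 0.42 for Fen1, 0.39 for Gins1 and 0.23 for Prim2, and among mitosis genes that of Cenpe was 0.51 in place of 0.88. For Mki67 it was 0.21 in place of 0.40 and for Top2a 0.14 in place of 0.40. The helicase subunit Mcm6, chosen after values were seen for its promoter, had a mean of 7.06 in untreated and 7.57 in treated mice, with overlapping groups (log2 change 0.51, SE 0.34).

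Enzymes that supply folate-dependent building blocks had the same mouse on top. Of 28 genes of the folate cycle and of nucleotide synthesis none passed the test, 8 (28.6%) lay higher and 1 lower without overlap, and the median of 0.31 was 0.11 without treated mouse 2. On the higher side 1 of the 28 (3.57%, against 6.72% of all genes) had an unadjusted p under 0.05. Atic, which uses a folate cofactor to close the purine ring, was 7.76, 7.94 and 7.79 in untreated and 8.29, 8.85 and 8.25 in treated mice. The mitochondrial serine hydroxymethyltransferase Shmt2 had a log2 change of 0.62, the purine enzyme Gart one of 0.45 and Dhodh, of pyrimidine synthesis, one of 0.50. Without treated mouse 2 that of Shmt2 was 0.38 and that of Gart 0.28, and without untreated mouse 1 that of Shmt2 was 0.40. Of the 4 genes of folate uptake and retention 3 had a negative change and none passed the test, with a median of -0.35. Their mean was 7.64, 8.66 and 8.71 in untreated and 7.85, 8.35 and 7.75 in treated mice, so untreated mouse 1 lay below all treated mice. Among them the proton-coupled folate transporter Slc46a1 (-0.44) was the gene lower without overlap. Ggh had the largest change in size (-0.74), with overlap, and the reduced folate carrier Slc19a1 had -0.26. All of these were chosen after values were seen. Fpgs, the enzyme that retains folates and methotrexate in the cell by adding glutamates, had a log2 change of 0.04. Drug exporters did not stand out: 1 of 8 was higher without overlap. The multidrug pump Abcb1a had a log2 change of 0.13 with a 95% interval from -0.27 to 0.53, and the methotrexate exporter Abcc2 one of 0.15 (-0.69 to 0.99). The SD of Abcc2 was 0.07 in untreated and 0.14 in treated wild-type mice, and its interval uses the spread pooled with the knockout mice.

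Targets of p53, the factor activated by DNA damage, showed no common direction. Of 23 such genes none passed the test, 1 lay higher and 3 lower without overlap, and the median of 0.05 turned to -0.05 with quantile normalisation. The cell cycle inhibitor Cdkn1a was 10.16, 10.15 and 9.74 in untreated and 10.03, 9.89 and 10.28 in treated mice, with a 95% interval of its log2 change from -0.55 to 0.65. Mdm2, the ubiquitin ligase that removes p53, had a log2 change of -0.37 and the exonuclease Aen one of 0.46, each without overlap.

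Stem cell genes were mixed. Of 23 genes of stem cells and Wnt signalling, 5 (21.7%) were higher and 1 lower without overlap, none passed the test, and the median of 0.19 was 0.04 without untreated mouse 1. Lgr5, the receptor that marks cycling crypt stem cells, was 6.15, 6.67 and 6.70 in untreated and 5.93, 5.44 and 6.25 in treated mice, overlapping groups with a change of -0.63 (95% interval -1.32 to 0.07). Olfm4, another crypt base gene, was 10.92 to 11.02 without and 10.80 to 11.09 with methotrexate. Ascl2, a transcription factor of stem cells, had a log2 change of 0.82, the telomerase gene Tert one of 0.79 and the Wnt target Ephb3 one of 0.49, all without overlap, while the Wnt inhibitor Rnf43 had -0.50 with overlap.

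Promoters of the division genes and of the cholesterol genes described below are shown because these lists had positive changes in nearly all members. They are RefSeq sequences of assembly GRCm38.p6, read 5′ to 3′ along the gene from 126 bases before to 24 after the start site, with matches in capitals. In the windows of Cdca8 and of the mevalonate enzymes Mvd and Mvk, capitals mark CCAAT on either strand, which is bound by NF-Y. In Cdca8 they also mark TTTGAA, the core of the cell cycle element CHR, which overlaps the last CCAAT match. In Mcm6 they mark TTTNGCGC, an E2F motif, with 2 of the 3 matches overlapping on opposite strands. Mvd lies on the minus strand at chr8:122443399-122443548, Mvk on the plus strand at chr5:114444143-114444292, Cdca8 on the minus strand at chr4:124936894-124937043 and Mcm6 on the minus strand at chr1:128359682-128359831.
Cdca8: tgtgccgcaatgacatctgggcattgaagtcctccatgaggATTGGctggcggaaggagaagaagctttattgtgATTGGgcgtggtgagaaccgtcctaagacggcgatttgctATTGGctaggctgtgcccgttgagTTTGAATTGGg
Mcm6: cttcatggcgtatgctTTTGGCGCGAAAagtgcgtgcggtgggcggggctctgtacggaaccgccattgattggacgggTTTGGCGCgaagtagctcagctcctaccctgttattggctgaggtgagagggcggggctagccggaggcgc
Mvd: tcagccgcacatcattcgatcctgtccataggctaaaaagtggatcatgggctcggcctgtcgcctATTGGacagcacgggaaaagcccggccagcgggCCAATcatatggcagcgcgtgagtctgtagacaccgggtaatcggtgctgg
Mvk: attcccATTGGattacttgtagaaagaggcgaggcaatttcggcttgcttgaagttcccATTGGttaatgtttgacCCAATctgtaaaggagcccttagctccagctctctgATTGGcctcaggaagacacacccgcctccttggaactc
Over windows from 250 bases before to 50 after the start site, both strands searched and any start site of a gene counted, CCAAT was in 18 of 19 cholesterol genes with a window, 25 of 30 mitosis genes and 16 of 25 replication genes, against 41.1% of 27025 genes. TTTGAA was in 25 of 30 mitosis genes, 6 of 25 replication genes and 1 of 19 cholesterol genes (20.2% of all). TTTNGCGC was in 10 of 25 replication genes, 2 of 30 mitosis genes and 0 of 19 cholesterol genes (1.57% of all). The sterol element CACCCCAC was in 1 of 19 cholesterol genes, Hmgcs1 (3.3% of all). A match describes the letters only.

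Lymphocyte genes were lower, and this was the group with most calls. Of 39 T cell and intraepithelial lymphocyte genes, Cd7 and Cd8a fell, and 16 (41%) lay lower without overlap against 9.18% of all genes. An unadjusted p under 0.05 on the lower side was found for 16 genes of this list (4.96% of all genes). The genes did not move as a block: 14 of the 39 had a positive change, and the list median was only -0.20. Cd3e, a signalling chain of the T cell receptor, was 7.26, 6.92 and 6.89 in untreated and 6.32, 5.36 and 5.87 in treated mice (log2 change -1.17, SE 0.27, limma adjusted p = 0.146). Itgae, the integrin that holds intraepithelial lymphocytes to the epithelium, was 6.57, 6.51 and 6.74 without and 6.01, 5.71 and 5.78 with methotrexate (adjusted p = 0.072). Both were lower in every treated mouse without passing the test. Among further members of the list, chosen after values were seen, Cd3g had -1.15, Cd96 -1.10, Il2rb -0.81 and Cd4 -0.76, while Cd5 (0.00), Cd6 (0.10), Cd28 (0.15) and Thy1 (-0.12) lay near 0.

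Genes of cytotoxic granules and NK receptors were lower as well. Nkg7 and Klrd1 fell, and 10 of 24 (41.7%) were lower and 0 higher without overlap. Gzmb, granzyme B, was 7.51, 7.42 and 7.22 in untreated and 5.86, 5.55 and 6.30 in treated mice, with a log2 change of -1.48 (SE 0.25, limma adjusted p = 0.0647). Gzma, granzyme A, was 7.45, 7.10 and 7.52 without and 5.76, 5.81 and 6.37 with the drug (adjusted p = 0.0757). For both granzymes at least 0.7 log2 units lay between the lowest untreated and the highest treated mouse. All 10 granule genes had a negative change with a median of -0.42, while the 10 NK receptor and adaptor genes had one of -0.13. The pore-forming protein gene Prf1 (-0.05) and the cytokine gene Ifng (0.06), both chosen after values were seen, were near 0.

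The T cell list differed between the treated mice together with B cell genes. Its median distance from the untreated mean was 0.10, -0.46 and -0.30 in treated mice 1, 2 and 3, and without treated mouse 1 the list median was -0.38, without treated mouse 2 -0.10. The mean of 11 B cell genes was 5.42, 4.73 and 3.90 in untreated and 6.57, 3.77 and 3.84 in treated mice, so treated mouse 1 held the most B cell RNA, and 30 of the 39 T cell genes had their highest treated value in that mouse. The part of B cell rich tissue in the T cell values was not tested. The granule list was more even, at -0.18, -0.37 and -0.28 for the 3 treated mice. Within the mice with pancreatic RNA the medians of the T cell and granule lists were -0.45 and -0.34, and within the others -0.25 and -0.28.

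Plasma cell genes were lower in part. The 9 plasma cell genes had a median of -0.47, with 3 lower and 1 higher without overlap and none past the test. Jchain, which links IgA into dimers for secretion, was 8.73, 8.62 and 8.34 in untreated and 7.54, 7.96 and 7.67 in treated mice (log2 change -0.84, SE 0.27, limma adjusted p = 0.294). Prdm1, the factor that drives plasma cell fate, had a log2 change of -0.70, and Tnfrsf17, a survival receptor of plasma cells, one of -0.47, both without overlap. Mzb1, an antibody assembly cofactor, was 5.55, 5.91 and 5.39 without and 5.73, 4.19 and 4.01 with the drug, so treated mouse 1 was at the untreated level. The mean of the 9 plasma cell genes was 6.42, 6.81 and 6.61 in untreated and 6.23, 6.08 and 5.84 in treated mice, and 8 had a negative change. For B and plasma cell genes together, the median of -0.17 was 0.21 without treated mouse 2 and -0.75 without treated mouse 1, so no direction is given for the joint list.

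Macrophage genes were lower in all treated mice. Of 27 genes of macrophages, monocytes and dendritic cells none passed the test, and 15 (55.6%) were lower and 0 higher without overlap. The median was -0.52, and -0.34 and -0.57 within the mice with and without pancreatic RNA. Csf1r, the receptor for the macrophage growth factor, was 8.22, 8.04 and 8.11 in untreated and 6.40, 7.59 and 6.99 in treated mice (log2 change -1.13, SE 0.24, limma adjusted p = 0.125). Lyz2, macrophage lysozyme, was 10.09, 9.98 and 10.08 without and 8.92, 9.56 and 8.74 with methotrexate. Cd68, a lysosomal protein of phagocytes, had a log2 change of -0.73, as did the signalling adaptor Tyrobp, and the surface marker Adgre1 had -0.70. In Csf1r and Cd68 treated mouse 1 was the lowest and treated mouse 2 the highest of the treated, the reverse of the order in the T cell genes for mouse 2. Of the list, 21 are macrophage and monocyte genes with a median of -0.53, and 6 are dendritic cell genes with one of -0.12.

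Antigen presentation genes were lower in treated mice 2 and 3. Of 9 genes of MHC class II presentation none passed the test and 5 (55.6%) were lower without overlap, with a median of -0.59. On the lower side 1 of the 9 (11.1%, against 4.96% of all genes) had an unadjusted p under 0.05. The count was 0 without untreated mouse 1 and 0 without treated mouse 3. H2-Ab1, a class II beta chain, was 10.61, 9.79 and 9.65 in untreated and 9.37, 8.91 and 8.89 in treated mice (log2 change -0.96, SE 0.34, limma adjusted p = 0.327). Cd74, the invariant chain, was 9.94, 9.77 and 9.69 without and between 8.96 and 9.65 with the drug. All 9 genes were highest in treated mouse 1 among the treated mice, the mouse with the most B cell RNA, and B cells also carry class II. The list's distance from the untreated mean was -0.15 in treated mouse 1, against -0.84 and -0.87 in treated mice 2 and 3. Interferon-induced genes went apart in the treated mice: their median distance was 0.60, -0.49 and 0.21, and the list median of 0.08 has no stable sign, being -0.17 without treated mouse 1. It was -0.51 within the mice with pancreatic RNA and 0.42 within the others.

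Endothelial genes were lower by a small amount that was even across the treated mice. Of 22 genes of blood and lymph vessels none passed the test, 13 (59.1%) were lower and 0 higher without overlap, and the median was -0.32. The 16 blood vessel genes had a median of -0.40 and the 6 lymphatic genes one of -0.12. In 1 blood vessel gene the unadjusted p was under 0.05 on the higher side. The distance from the untreated mean was -0.28, -0.37 and -0.32 in the 3 treated mice. Plvap, the protein of endothelial fenestrae, was 7.40, 7.55 and 7.57 in untreated and 7.02, 6.99 and 7.07 in treated mice (log2 change -0.48, SE 0.09, limma adjusted p = 0.082). Emcn, endomucin, was 6.94, 6.93 and 7.08 without and 6.11, 6.42 and 6.60 with methotrexate. The treated values of Plvap spanned under 0.1, and the gap to the untreated mice was about 0.3. An unadjusted p under 0.05 on the lower side was found for 11 of the 22 (4.96% of all genes), and for 7 without treated mouse 2, where the share of all genes was 3.04%. Of the other stromal lists, fibroblasts had 6 of 21 higher and 4 lower without overlap, among them collagen gene Col1a1 (0.67) and the pericyte receptor Pdgfrb (-0.45), and smooth muscle 2 of 15 lower.

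**Figure D3:**
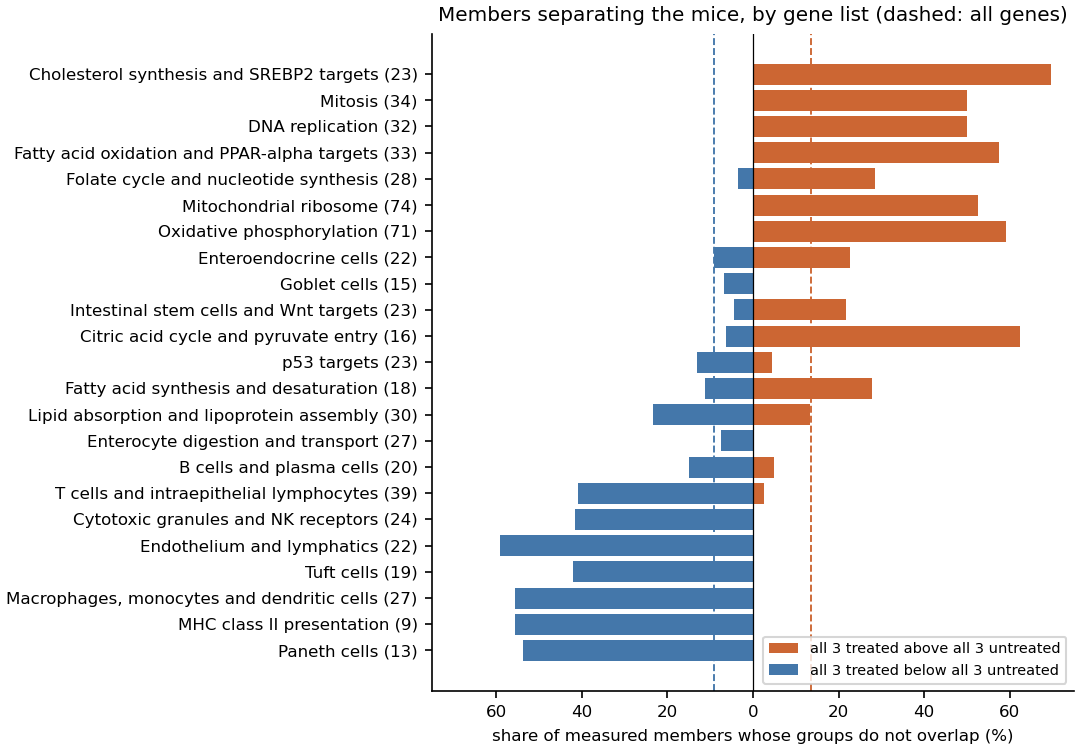
Share of the measured members of each gene list (x axis, percent; number of members in brackets) in which all 3 treated wild-type mice lay above (orange, right) or below (blue, left) all 3 untreated mice, ordered by the list's median log2 change. Dashed lines give the shares over all genes, 13.5% above and 9.18% below. Cholesterol, mitochondrial and division lists reach 50% to 69.6% on the higher side, and Paneth, class II, macrophage and endothelial lists 53.8% to 59.1% on the lower side. The share with an unadjusted p under 0.05 was 6.25% and 8.82% in the division lists (higher side, 6.72% of all genes). In class II it was 11.1% (lower side, 4.96% of all genes).

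Paneth cell genes were lower in all treated mice, to a different degree in each. Of 13 genes none passed the test, all 13 had a negative change and 7 (53.8%) were lower without overlap, with a median of -0.85. Lyz1, the lysozyme of Paneth granules, was 12.14, 12.37 and 12.28 in untreated and 10.82, 11.99 and 11.31 in treated mice (log2 change -0.89, SE 0.23, limma adjusted p = 0.192). Defa24, an alpha-defensin, was 10.78, 11.11 and 11.17 without and 9.25, 10.68 and 10.16 with methotrexate. Ang4, a bactericidal ribonuclease, was 7.57, 7.27 and 7.40 without and 5.02, 6.72 and 5.66 with the drug, and Itln1, a lectin that binds microbial sugars, 8.93, 9.29 and 9.45 without and 7.19, 8.26 and 7.61 with it. In these genes the order was the same: treated mouse 1 was lowest, mouse 3 in between and mouse 2 closest to the untreated mice. The list's median distance from the untreated mean was -1.49, -0.41 and -0.86 in treated mice 1, 2 and 3. Within the mice with pancreatic RNA the median was -0.43 and within the others -0.90. Only 3 alpha-defensins had a probe set of their own, and near-identical members of that family may share signal. Clps (-2.23) is also made by the pancreas.

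Other secretory lineages differed from each other. Of 19 tuft cell genes 8 (42.1%) were lower and 0 higher without overlap, with none past the test and a median of -0.36. Alox5, the leukotriene-making lipoxygenase, was 6.17, 5.92 and 6.06 in untreated and 5.37, 4.58 and 5.11 in treated mice (log2 change -1.03, SE 0.22, limma adjusted p = 0.138). Rgs13, a regulator of G protein signalling, was 5.77, 5.89 and 5.95 without and 5.35, 4.67 and 4.56 with the drug. Alox5 is also a gene of white blood cells. Goblet cell genes lay near the background, with 1 of 15 lower without overlap: the mucin Muc2 was 10.80, 11.08 and 11.04 in untreated and 10.24, 11.09 and 11.24 in treated mice, and the secreted protease Clca1 had -1.02 with overlap. Enteroendocrine genes had 5 of 22 (22.7%) higher and 2 lower without overlap. Among these, the substance P precursor Tac1 had 0.80 and the fate factor Insm1 0.53, which was 4.72, 4.78 and 4.79 without and 5.36, 5.48 and 5.03 with methotrexate.

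Mature enterocyte genes stayed near the background. Of 27 genes of digestion and transport none passed the test and 2 (7.41%) were lower without overlap, with a median of -0.10 that was 0.03 without treated mouse 2. Lct, lactase, was 11.97, 11.53 and 11.41 in untreated and 11.36, 9.89 and 11.40 in treated mice (log2 change -0.76, 95% interval -1.53 to 0.02, limma adjusted p = 0.434). Treated mouse 2 was more than 1 log2 unit below the others, while the treated mice 1 and 3 were within 0.1 of the lowest untreated mouse. Sis was 11.58, 11.77 and 11.67 without and 11.84, 11.66 and 11.998 with the drug. Cubn, the receptor that takes up the vitamin B12 carrier, was 10.54, 10.08 and 9.06 in untreated and 8.54, 7.12 and 9.22 in treated mice, with overlap. Treated mouse 2 had the lowest treated value in 24 of the 27 genes and the highest in all 34 mitosis genes.

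**Figure D4:**
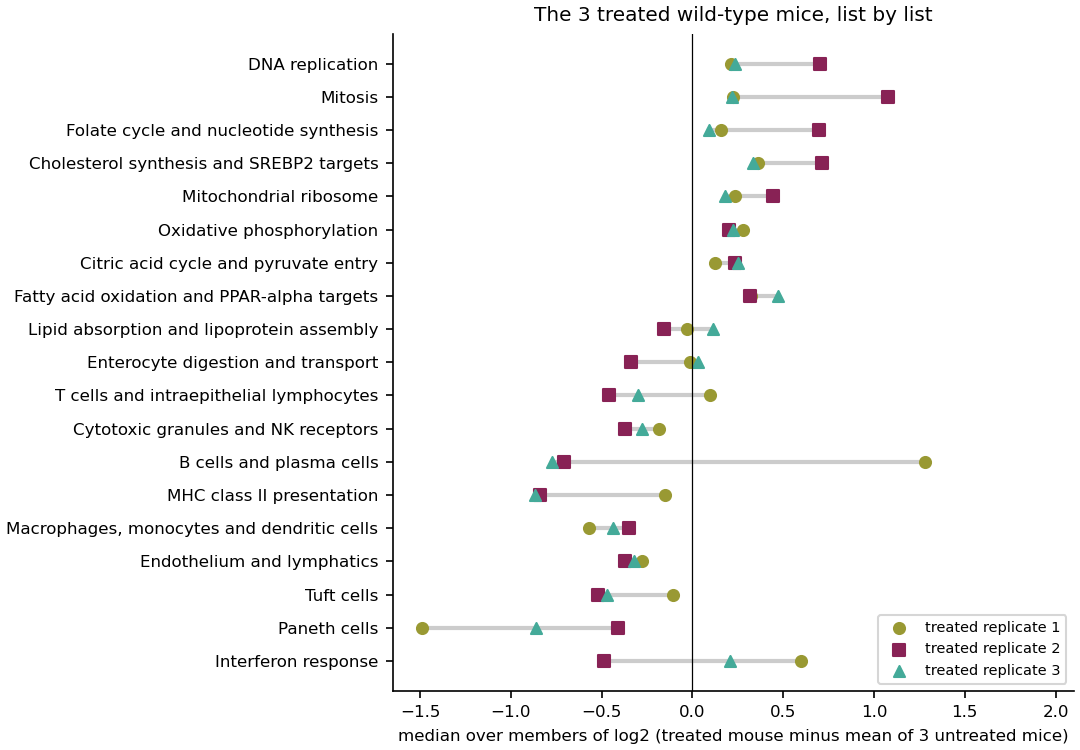
Median over the members of each gene list (y axis) of the log2 distance of each treated wild-type mouse from the mean of the 3 untreated mice (x axis), 1 symbol per treated mouse, with a bar over their range. Treated mouse 2 stands apart in mitosis (1.08 against 0.22 and 0.22), treated mouse 1 in the joint list of B and plasma cell genes (1.28) and in Paneth cell genes (-1.49), while oxidative phosphorylation (0.20 to 0.28) and endothelium (-0.37 to -0.28) are even. In the joint list only the B cell genes were high in treated mouse 1. Their mean was 6.57 there and 3.90 to 5.42 in untreated mice, and that of the plasma cell genes 6.23 and 6.42 to 6.81.

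Genes of cholesterol synthesis were higher in most members. Of 23 such genes and targets of SREBP2, the transcription factor activated when sterols are low, none passed the test, 16 (69.6%) were higher and 0 lower without overlap, and the median was 0.49. An unadjusted p under 0.05 on the higher side was found for 11 (47.8%, against 6.72% of all genes). Mvd, which makes isopentenyl diphosphate at the end of the mevalonate arm, was 5.32, 5.25 and 5.25 in untreated and 5.95, 6.29 and 5.97 in treated mice (log2 change 0.79, SE 0.13, limma adjusted p = 0.0647). Mvk, mevalonate kinase, was 6.31, 6.39 and 6.36 without and 6.90, 7.27 and 6.67 with methotrexate (adjusted p = 0.172). Lss, which folds squalene epoxide into lanosterol, was 6.30, 6.37 and 6.33 without and 6.78, 7.44 and 6.76 with it. The untreated mice spanned under 0.1 in each of these genes, and treated mouse 2 was the highest, without which the change of Lss was 0.44 in place of 0.66. Further along the pathway Hsd17b7 had 0.43, and of members chosen after values were seen Cyp51 had 0.91, Sqle 0.79, Hmgcs1 0.73 and Srebf2, which encodes SREBP2, 0.50. The 6 genes of the mevalonate arm had a median of 0.55, the 11 from squalene to cholesterol 0.38, and the 6 of uptake and feedback 0.30. The list's distance from the untreated mean was 0.36, 0.71 and 0.33 in the 3 treated mice, and its median was 0.36 without treated mouse 2. Within the mice with pancreatic RNA it was 0.76 and within the others 0.22.

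Fatty acid synthesis and lipid absorption had no common direction. Of 18 genes of fatty acid synthesis and desaturation 5 were higher and 2 lower without overlap, and the median of 0.05 was -0.02 with quantile normalisation. Scd2, a fatty acid desaturase, was 7.50, 7.63 and 8.07 in untreated and 8.46, 9.24 and 8.80 in treated mice (log2 change 1.10, SE 0.24, limma adjusted p = 0.138). Me1, the malic enzyme that supplies NADPH, had 0.94 and Srebf1 0.31, both without overlap. Thrsp (-1.35), a gene of fat-making tissue, was 6.44 in untreated mouse 1, the mouse rich in fat cell genes, and 3.13 to 3.99 in the other mice. Of 30 genes of lipid absorption and lipoprotein assembly 4 were higher and 7 (23.3%) lower without overlap, with a median of -0.04. The cholesterol exporter Abca1 had -0.73 and the monoglyceride lipase Mgll -0.56, and of genes chosen after values were seen the sterol importer Npc1l1 had -0.60 and the sterol exporter Abcg5 -0.51. The fatty acid binding protein Fabp2 was 11.72, 11.43 and 11.62 without and 11.83, 11.86 and 11.97 with the drug, and the chylomicron protein Apoa4 12.80 to 12.87 without and 12.71 to 12.86 with it. The 95% interval for Apoa4 still ran from -1.78 to 1.67, since the test's spread is pooled with the knockout mice.

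Genes of fatty acid oxidation were higher to a like degree in all 3 treated mice. Of 33 genes of this list, which includes PPAR-alpha targets, Acadl rose, 19 (57.6%) were higher and 0 lower without overlap, and 15 (45.5%) had an unadjusted p under 0.05 on the higher side. The median was 0.33, with 0.32, 0.32 and 0.47 for the 3 treated mice and 0.31 and 0.32 within the mice with and without pancreatic RNA. With quantile normalisation it was 0.26. Acaa1b, a peroxisomal thiolase, was 6.06, 5.88 and 6.18 in untreated and 6.61, 6.85 and 6.86 in treated mice (log2 change 0.73, SE 0.15, limma adjusted p = 0.116). Etfdh, which passes electrons from beta-oxidation to the respiratory chain, was 9.03, 8.88 and 8.93 without and 9.29, 9.32 and 9.44 with methotrexate. Eci2, an enoyl-CoA isomerase for unsaturated fats, was 7.55, 7.32 and 7.26 without and 7.76, 8.15 and 7.98 with it. In all these the steps were below 1 log2 unit and the groups stayed apart. All 14 genes of mitochondrial beta-oxidation had a positive change, 10 of them without overlap. The 4 genes of the carnitine shuttle had a median of 0.31, the 8 of peroxisomal and omega oxidation one of 0.32, and the 7 of ketogenesis, regulators and other targets one of 0.37. The negative members were Pdk4 (-0.33), which inhibits pyruvate entry, the coactivator Ppargc1a (-0.30) and the omega-hydroxylase Cyp4a14 (-0.09), and none of these passed the test.

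Genes of oxidative phosphorylation were higher by a small amount throughout the chain. Of 71 nuclear genes Atp5l rose, 42 (59.2%) were higher and 0 lower without overlap, and the median was 0.22. It was 0.28, 0.20 and 0.22 in the 3 treated mice, and 0.17 and 0.32 within the mice with and without pancreatic RNA. With quantile normalisation the list median was 0.16, and with median centring 0.18. The median signal of an array over all genes was 5.10 in untreated mouse 1 and 5.19 to 5.36 in the other wild-type mice. The part of such offsets between arrays in these small changes was not tested. Complex I, which takes electrons from NADH, had 23 of 35 genes higher without overlap and a median of 0.26. Complex II had 2 of 4, complex III 3 of 8 and complex IV 3 of 9, with medians of 0.19, 0.17 and 0.18, and the ATP synthase 11 of 15 with one of 0.23. Ndufb6, an accessory subunit of complex I, was 9.23, 9.03 and 9.38 in untreated and 9.69, 9.91 and 9.83 in treated mice (log2 change 0.60, SE 0.13, limma adjusted p = 0.145). Ndufa10 was 10.28, 10.25 and 10.26 without and 10.69, 10.64 and 10.57 with the drug, and Ndufa8 had a change of 0.36. The untreated values of Ndufa10 differed by under 0.05, and the treated values lay about 0.3 to 0.4 above them. The 5 genes with a negative change lay between -0.10 and -0.01, and 1 of them, Atp5d, is in the ATP synthase. An unadjusted p under 0.05 on the higher side was found for 23 of the 71 (6.72% of all genes), and for 14 without untreated mouse 1, where the share of all genes was 3.77%.

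**Figure D5:**
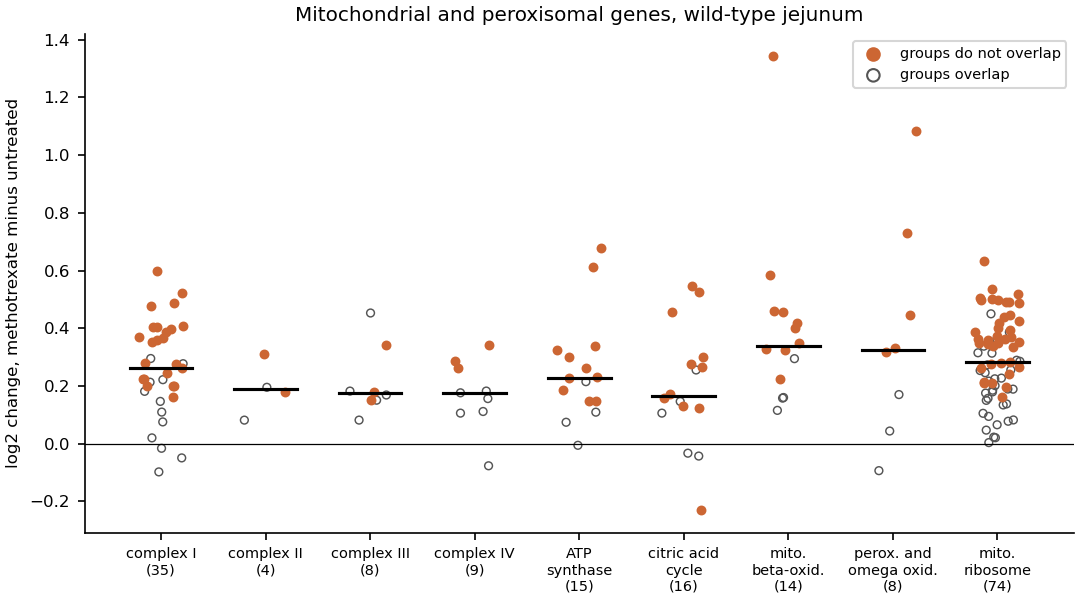
Log2 change after methotrexate (y axis) of single genes of the respiratory complexes, the ATP synthase, the citric acid cycle, fat oxidation and the mitochondrial ribosome (x axis; number of genes in brackets), with the median as a line. Filled points are genes whose 3 treated and 3 untreated mice do not overlap. Group medians lie between 0.17 and 0.34, and Acadl, at 1.34, is the highest point.

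The citric acid cycle and the mitochondrial ribosome were close to this. Of 16 genes of the cycle and of pyruvate entry, 10 (62.5%) were higher and 1 lower without overlap and none passed the test, with a median of 0.17. With quantile normalisation this median was 0.10. Fh1, fumarase, was 9.04, 8.97 and 8.92 in untreated and 9.44, 9.51 and 9.56 in treated mice (log2 change 0.53, SE 0.15, limma adjusted p = 0.211). Suclg1, of succinyl-CoA ligase, was 8.78, 8.73 and 8.86 without and 9.23, 9.23 and 9.28 with the drug, and Idh3b and Dlst had changes of 0.30 and 0.27. The gene that was lower without overlap was Ogdh (-0.23), a subunit of the same complex as Dlst. All 74 proteins of the mitochondrial ribosome had a positive change, 39 (52.7%) were higher without overlap, none passed the test and the median was 0.28. This median was 0.21 with quantile normalisation, and 0.41 and 0.28 within the mice with and without pancreatic RNA. Mrps9, of the small subunit, was 5.73, 5.71 and 5.82 without and 6.41, 6.51 and 6.24 with methotrexate (log2 change 0.63, SE 0.12, limma adjusted p = 0.082). Here treated mouse 2 was the highest in 61 of the 74, as in the division genes. The distance was 0.24, 0.44 and 0.18 in the 3 treated mice, and an unadjusted p under 0.05 on the higher side was found for 20 of the 74 (6.72% of all genes). It was found for 8 without treated mouse 2, for 12 without untreated mouse 1 and for 12 without untreated mouse 2, where the share of all genes also fell, to 4.34%, 3.77% and 5.29%.

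Of 31 inflammatory cytokines and chemokines none passed the test, 2 were higher and 3 lower without overlap, and the median log2 change was -0.08. Tnf was 4.56 to 4.77 in untreated and 4.76 to 4.84 in treated mice, and Il1b 3.99 to 4.21 and 3.89 to 4.34. The 95% interval of the log2 change was -0.34 to 0.54 for Tnf and -1.49 to 1.53 for Il1b. The SD of Il1b was 0.11 in untreated and 0.23 in treated wild-type mice, and its interval uses the spread pooled with the knockout mice. Ccl28, a chemokine of the epithelium for IgA plasma cells, was 7.42, 7.59 and 7.80 without and 8.33, 8.49 and 8.11 with the drug (log2 change 0.71, SE 0.15, limma adjusted p = 0.126). Of 18 antimicrobial and acute-phase genes, 3 (16.7%, against 13.5% of all genes) were higher and 1 lower without overlap, and the median was 0.02. An unadjusted p under 0.05 was found for 5 (27.8%, against 6.72% of all genes) on the higher side and 0 on the lower side. The median was 0.05 to 0.18 with 1 wild-type array left out, and 0.41 with pancreatic RNA as block or as covariate. With median centring it was -0.02 and with quantile normalisation 0.08. Reg3g, a lectin that kills Gram-positive bacteria, was 9.89, 8.67 and 9.88 in untreated and 10.60, 10.72 and 11.15 in treated mice (log2 change 1.34, adjusted p = 0.264). Nos2, inducible nitric oxide synthase, was 3.34 to 3.54 without and 4.34, 5.33 and 4.18 with methotrexate, and the iron-binding protein Lcn2 had a change of 0.71. Both Nos2 and Lcn2 were highest in treated mouse 2. Tlr2 itself was 4.37, 4.65 and 4.38 without and 4.49, 4.65 and 4.51 with the drug. In prostaglandin and leukotriene metabolism, where Ptges fell, 6 of 13 (46.2%) were lower and 1 higher without overlap, and the median of -0.29 was -0.11 without untreated mouse 3.

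The effect differed from that in TLR2 knockout mice for 4479 genes (23.8%) by limma's interaction contrast, which is the knockout effect minus the wild-type effect. Of the 14 genes past the test in wild-type mice, 7 had such a difference. Ptges fell by 0.91 in wild-type mice and rose by 2.30 in knockout mice, a difference of 3.21 (SE 0.18, adjusted p = 7.5e-07). Pafah2 rose by 0.99 in wild-type mice and had a log2 change of -0.96 in knockout mice. Atp5l, Gramd2, Gstp3 and Slc6a7 also had lower values of the effect in knockout mice, and Cd8a fell further there (-2.16). For Lect2, Cd7, Nkg7, Klrd1, Acadl, Cfhr2 and Clca3a1 the adjusted p of the difference was between 0.0702 and 0.501, which does not show that the effects were alike. The median size of the log2 change was 0.28 in knockout mice, against 0.15 in wild-type mice.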

How the data were processed

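Total RNA of proximal jejunum from 12 mice, 3 in each of 4 groups, was hybridised to 1 Affymetrix array per mouse, per the labels. The authors deposited log2 signals per probe set made with RMA, per the submitters' processing notes. RMA subtracts background, normalises across arrays and combines the probes of a set. For its version and the annotation build the sources used here give nothing, and the deposited log2 values were used with no further scaling. Arrays have no read depth; their number limits the precision.

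Of 35556 probe sets, 21218 had 1 gene name in the platform annotation, 1881 several and 12457 none. For each of 18820 genes the probe set with the highest mean was used (1386 genes had more than 1), and 18790 matched the RefSeq table of GRCm38.p6 by gene ID. All 12 arrays were fitted with limma 3.58.1 in R 4.3.3 (lmFit, eBayes, a mean per group, 8 residual degrees of freedom). P-values were adjusted by Benjamini-Hochberg over all genes. They set the difference between the groups against the spread between mice, pooled over all 12 arrays and moderated over genes. The words rose and fell are kept for genes with an adjusted p under 0.05. SE is limma's standard error, and intervals are 95%. Lists are described by counts and medians with no set test.

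The members, the 38 gene lists and the tests were chosen with earlier results of these data known. Genes to be named were picked by rule. The rules took the genes past the test and the 10 largest changes in each direction among genes without overlap and with an unadjusted p under 0.05. Predicted genes, antigen receptor segments and acinar genes were left out of these largest changes. The 4 (main lists) or 2 (other lists) members of each list with the smallest p were also taken. A further 28 genes were fixed whatever their values, of which 5 were not analysed here. Not every gene picked by these rules is described in the wild-type results, and Mmp9, Cyp1a1, Oas2 and Reg3b are examples of those left out. Genes outside the rules are marked as chosen after values were seen. Alternatives were another probe set rule, leaving out genes whose mean signal was under the 25th percentile, quantile normalisation, median centring, the 6 wild-type arrays alone, a replicate block, trended robust variance, array weights, pancreatic RNA as covariate or block, a minimum log2 change of 0.5 and leaving out each array.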

Additional observations from a re-analysis of the deposited data

Results flagged for a closer look

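A difference in the methotrexate effect between the genotypes flagged 4479 genes, by limma's interaction contrast over 18820 genes. Of the 153 genes named by rule for the wild-type comparison, 60 had such a difference. Most were named for their wild-type change or p, and the wild-type effect is part of the contrast. Their share is therefore not comparable with the 23.8% of all genes. Each value that follows is a difference of log2 changes, knockout effect minus wild-type effect.

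Among enterocyte and transport genes the difference was -7.05 for Lct, -5.67 for Sis, -5.12 for Naaladl1, -4.22 for Cubn, -3.73 for Fabp2, -3.55 for Abcc2, -1.87 for Mgam, -1.76 for Abcb1a, -2.0025 for Slc23a4 and -1.23 for Slc6a7. It was 2.21 for Abcc4, 2.28 for Abca1, 1.01 for Abhd5, 1.37 for Mgll and 0.73 for Plin2. Of metabolic enzymes Dio1 had -3.35, Gstt1 -2.43, Gstp3 -1.39, Cyp1a1 -1.52 and Pafah2 -1.95, and Gramd2 had -1.97. In fat and sterol metabolism Acaa1b had -2.39, Etfdh -1.36, Mvk -0.90 and Srebf1 -0.56. In mitochondria Atp5l had -0.95, Ndufa10 -0.95, Ndufa8 -0.78, Ndufb6 -0.89, Dlst -1.04, Fh1 -1.31, Idh3b -0.94 and Suclg1 -1.43.

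Myeloid genes had positive differences, with 2.81 for Cd68, 2.46 for Csf1r, 1.67 for Adgre1, 1.93 for Lyz2, 2.03 for Tyrobp, 2.22 for Ltf and 3.47 for Mmp9. Of inflammatory genes Lcn2 had 5.09, Ptges 3.21, Il1a 2.59, Alox5 1.15, Tnf 0.95 and Ccl28 -4.64. In lymphocytes Cd8a had -0.86 and Gzmb -1.30. Stromal and nerve genes had 1.61 (Col1a1), 2.78 (Pdgfrb), 1.47 (Des), 1.40 (Emcn), 1.39 (Plvap), 2.18 (Stmn2), 0.62 (Kit) and -1.05 (Gfra3). Crypt and secretory genes had -4.80 (Olfm4), -1.28 (Tert), -1.92 (Rgs13) and -1.41 (Insm1).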

How the results depend on the processing

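The 14 calls were sensitive to the setting. Centring arrays on their median gave 0 calls with limma (2078 genes at an unadjusted p under 0.05), the wild-type arrays alone gave 0 (2901) and the replicate block gave 0 (2181). Trended robust variance gave 7, pancreatic RNA as covariate 24 and as block 34, and array weights, which ran from 0.245 to 6.69, gave 1819. Leaving out 1 array gave 0 to 97 calls. The count was 97 without treated knockout mouse 1, 30 without untreated knockout mouse 1, 15 without treated knockout mouse 3, 4 without treated wild-type mouse 1, 2 without treated knockout mouse 2, 1 without untreated wild-type mouse 1 and 0 without any other single array. The probe set rules, the filter on dim genes, quantile normalisation and the minimum change gave 11 to 15. Each of the 14 genes kept its direction in all 22 alternatives run for single genes and its call in 4 to 11 of them. The deviations of same-numbered treated and untreated mice had correlations of 0.29, 0.53 and -0.49, so pairing was not assumed. Pancreatic RNA tracked the number: it was low in mouse 1 of all 4 groups, high in mouse 2 of all 4 and high in mouse 3 of 3 of 4, the exception being treated wild-type mouse 3. Whether same-numbered mice were handled together is not stated in the labels. The count of genes with a genotype difference was 4479, 7474 with array weights, and 3825 to 5165 with 1 array left out. The cause of these shifts was not tested.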
